A study of Mus musculus with 12 samples.

Results

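Myb, Gata2, Runx1, Lmo2, Spi1, Gfi1, Fli1, Etv6, Ikzf1 and Erg encode transcription factors of blood progenitors and of the myeloid lineage. Their mRNA levels were followed across 4 sorted sub-populations of the mouse leukemia line ML23. The genes were found as the rows of the expression table that carry these 10 symbols, so they are 10 of 20202 genes and no expression value entered the choice. Each symbol had 1 row. Each of the 10 reached 1 CPM (a count relative to its library total) in at least 3 libraries, the minimum for testing, which 13450 genes passed. Gata2 did so only through P10, P11 and P12, because its 3 P9 libraries all lay under 1 CPM.

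ML23 was made from cells of transgenic rtTA mice (Jax strain 6965) with lentiviruses that overexpress Meis1, HoxA9 and HoxB5, and was passaged in C57BL/6 mice. The sub-populations were sorted from ZsGreen+ bone marrow cells by 4 surface proteins. P9 was CD9+ and CD48-, and the other 3 were CD9- and CD48+. P9 and P10 were both cKit+ Mac1+, P11 was cKit+ Mac1- and P12 was negative for cKit as well as for Mac1. The study treats P11 as its leukemia stem cell sub-population, and it compares P11 with the mean of the 3 others. Each sub-population, called a gate below, had 3 libraries made from 100 sorted cells each. All of the cells therefore share the 3 introduced factors, the reporter and 1 leukemia line, and no normal blood cells were measured beside them. By the study, the cells for RNA-seq came from 3 diseased mice and were then sorted into the 4 gates. The labels do not tie a library to a mouse, so a pairing of gates by mouse is not known from them. They also do not give the age and sex of the hosts. The p-values below measure the spread between these libraries, part of which may be technical. In bulk samples of sorted cells, fewer cells expressing a gene and less of its RNA per cell cannot be told apart.

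Blood cell identity is set by a small set of DNA-binding factors that act in combination. Myb binds its own short motif and is needed for definitive hematopoiesis and for progenitor proliferation. Gata2, Runx1 and the adaptor Lmo2, which bridges GATA and SCL proteins without binding DNA itself, belong to the network that maintains stem and progenitor cells. Erg, Fli1, Etv6 and Spi1 (which encodes PU.1) all carry the ETS domain, whose recognition core is GGAA. PU.1 drives macrophage and neutrophil genes, whereas Etv6 is a repressor of the family. Gfi1 is a zinc-finger repressor required for neutrophil maturation, and Ikzf1 encodes Ikaros, a zinc-finger factor best known from lymphoid cells that is also present in myeloid cells.

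Promoter windows from RefSeq are shown for Myb, Gata2, Runx1 and Etv6, whose mRNA was lowest in P9, and for Erg, whose mRNA was highest there. They let the ETS cores in front of genes with opposite profiles be read side by side. Each is a window of 300 bases, from 250 before to 50 after a RefSeq transcription start on GRCm38.p6, written 5′ to 3′ along the strand of the gene. Capitals mark GGAA and its reverse complement TTCC.
Myb, chr10:21160935-21161234, minus strand: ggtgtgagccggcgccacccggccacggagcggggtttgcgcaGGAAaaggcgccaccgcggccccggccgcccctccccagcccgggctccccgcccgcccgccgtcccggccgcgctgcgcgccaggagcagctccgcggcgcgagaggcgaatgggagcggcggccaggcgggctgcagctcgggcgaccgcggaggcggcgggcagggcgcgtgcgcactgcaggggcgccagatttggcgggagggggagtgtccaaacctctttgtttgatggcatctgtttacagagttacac
Gata2, chr6:88193641-88193940, plus strand: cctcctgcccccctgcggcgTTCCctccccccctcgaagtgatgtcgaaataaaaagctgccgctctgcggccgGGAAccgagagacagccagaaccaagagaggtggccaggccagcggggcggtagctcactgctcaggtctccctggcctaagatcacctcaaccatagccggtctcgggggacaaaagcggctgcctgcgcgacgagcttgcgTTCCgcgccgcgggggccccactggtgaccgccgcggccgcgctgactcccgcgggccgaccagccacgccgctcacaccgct
Runx1 upstream start, chr16:92826025-92826324, minus strand: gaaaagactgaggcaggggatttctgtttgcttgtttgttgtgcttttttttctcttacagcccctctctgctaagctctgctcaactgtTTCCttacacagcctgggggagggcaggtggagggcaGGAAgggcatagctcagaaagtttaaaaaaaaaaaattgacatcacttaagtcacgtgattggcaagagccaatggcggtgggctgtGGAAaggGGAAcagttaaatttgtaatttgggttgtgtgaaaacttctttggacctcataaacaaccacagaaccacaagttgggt
Runx1 downstream start, chr16:92697280-92697579, minus strand: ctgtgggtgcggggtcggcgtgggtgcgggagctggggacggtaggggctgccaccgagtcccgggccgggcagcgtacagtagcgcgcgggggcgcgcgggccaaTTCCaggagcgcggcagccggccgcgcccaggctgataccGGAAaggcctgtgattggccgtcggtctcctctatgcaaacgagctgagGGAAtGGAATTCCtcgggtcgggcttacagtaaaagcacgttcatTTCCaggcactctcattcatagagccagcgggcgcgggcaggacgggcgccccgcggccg
Etv6, chr6:134035450-134035749, plus strand: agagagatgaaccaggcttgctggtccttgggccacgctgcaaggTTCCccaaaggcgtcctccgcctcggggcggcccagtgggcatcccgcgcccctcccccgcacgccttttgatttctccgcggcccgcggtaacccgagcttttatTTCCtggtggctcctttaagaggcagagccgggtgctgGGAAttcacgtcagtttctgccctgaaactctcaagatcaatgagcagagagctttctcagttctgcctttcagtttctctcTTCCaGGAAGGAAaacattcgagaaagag
Erg, chr16:95586544-95586843, minus strand: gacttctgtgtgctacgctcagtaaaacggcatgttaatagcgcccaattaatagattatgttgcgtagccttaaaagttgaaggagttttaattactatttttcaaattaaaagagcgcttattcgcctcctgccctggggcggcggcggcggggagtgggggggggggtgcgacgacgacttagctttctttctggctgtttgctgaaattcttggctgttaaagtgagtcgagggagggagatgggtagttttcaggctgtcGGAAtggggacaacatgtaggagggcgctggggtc

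The table held 13 start windows for 7 of the 10 genes, namely Myb, Gata2, Runx1, Etv6, Erg, Gfi1 and Ikzf1. The GGAA core was counted on both strands. Etv6 and the Runx1 downstream window held 6 cores each, the Runx1 upstream window 4, Gata2 3 in the printed window, and Myb and the printed Erg window 1 each. The windows not printed held 4 and 2 cores for Erg, 1 for Gata2, 1 and 5 for Gfi1, and 0 and 6 for Ikzf1. Such cores are common, since 96.0% of all 32544 promoter windows of this length held at least 1, with a mean of 3.52. The RUNX motif TGTGGT was found among these genes only in the Runx1 upstream window, with 2 matches, and 16.7% of all windows held it. The GATA motif AGATAA, in 11.2% of all windows, was found in only 1 of the 13, a window of Erg at chr16:95459299-95459598. The E-box CANNTG (72.3% of all windows) and the MYB core AACNG (80.2%) had 3 and 5 matches in the Runx1 upstream window, and overlaps between different motifs were not removed. The first Ikzf1 window, chr11:11685675-11685974, held none of the 5 motifs, and its GC content was 81.3% against a median of 53.0% over all windows. These matches describe the letters only.

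In the mm10 annotation Myb lies at chr10:21124935-21160984 on the minus strand, Gata2 at chr6:88193891-88207032 on the plus strand, and Runx1 at chr16:92601466-92826149 on the minus strand. Erg follows on the same chromosome at chr16:95359169-95586593, also on the minus strand. Lmo2 (chr2:103957986-103981878) and Spi1 (chr2:91082390-91115756) are both on the plus strand of chromosome 2. Gfi1 lies at chr5:107716657-107726036 (minus), Fli1 at chr9:32422204-32542861 (minus), Etv6 at chr6:134035700-134270158 (plus) and Ikzf1 at chr11:11685003-11772926 (plus). The values are per gene, so they do not separate transcripts from different starts.

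Nearly all of the members' transcript sequence was their own. Of the stretches of 61 bases in their transcripts, the length of 1 read, none was shared with another gene for Gata2, Lmo2, Spi1, Fli1, Ikzf1 or Erg. The share was 3.6% for Myb, 1.29% for Etv6, 0.70% for Gfi1 and 0.38% for Runx1, each from 1 antisense gene. The antisense partner of Myb, Gm26577, had 3.53 to 11.3 CPM, and its counterparts at the other 3 genes had at most 2.24 CPM. The sources name a stranded and an unstranded kit, so reads of a gene and of its antisense partner may not have been separated.

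Some facts of the libraries bear on what follows. The totals behind them were 13441953 to 21307569 alignments (median 17842898), so 1 CPM stands for at least 13.4 alignments. The mRNA of Cd9, Cd48 and Itgam (which encodes Mac1) had its higher group means in the gates sorted as positive for them. Kit mRNA was 54.5 ± 10.9 CPM (SD, n = 3) in P9, 63.2 ± 23.2 in P11 and 5.19 ± 0.66 in P12, but only 12.7 ± 7.6 in P10, a cKit+ gate. The labels call the source hematopoietic stem cells. Of 7 markers of normal stem cells, chosen after values of these data had been seen, 4 were among the values used here and none exceeded 5.19 CPM in any library. The 11 neutrophil maturation markers (such as Ltf, Camp and S100a8) summed to 116500 to 130200 CPM in P9, but to 1769 to 12370 in P10, and 277 to 810 in P11 and 413 to 484 in P12. A rescaling by the median ratio to a common reference gave factors of 0.765 to 0.828 for the P9 libraries and 1.01 to 1.16 for the 9 others. It moved the median log2 difference of all genes between P11 and P9 from 0.90 to 0.45, and that between P9 and P12 from -0.80 to -0.38. Member values against P9 are therefore read beside these medians.

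The 10 genes did not move as a block across the 4 gates. By group mean 5 were highest in P11, 4 in P9 and 1 in P12, while 5 were lowest in P9, 3 in P11 and 1 each in P10 and P12. The ratio of the highest to the lowest group mean was 37.5 for Gata2, 5.69 for Myb, 4.65 for Erg, 4.19 for Gfi1, 3.48 for Runx1, 2.18 for Etv6 and 2.04 for Spi1. It was 1.65 for Fli1, 1.54 for Ikzf1 and 1.45 for Lmo2. A gene was called where the limma test gave an adjusted p under 0.1 and the groups differed by more than 2-fold. By the F test over the 4 groups 7 of the 10 were called, beside 65.1% of all genes tested, so the members changed about as often as other genes. CPM values are not per length, so levels are compared between groups within a gene and never between genes.

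**Figure D1:**
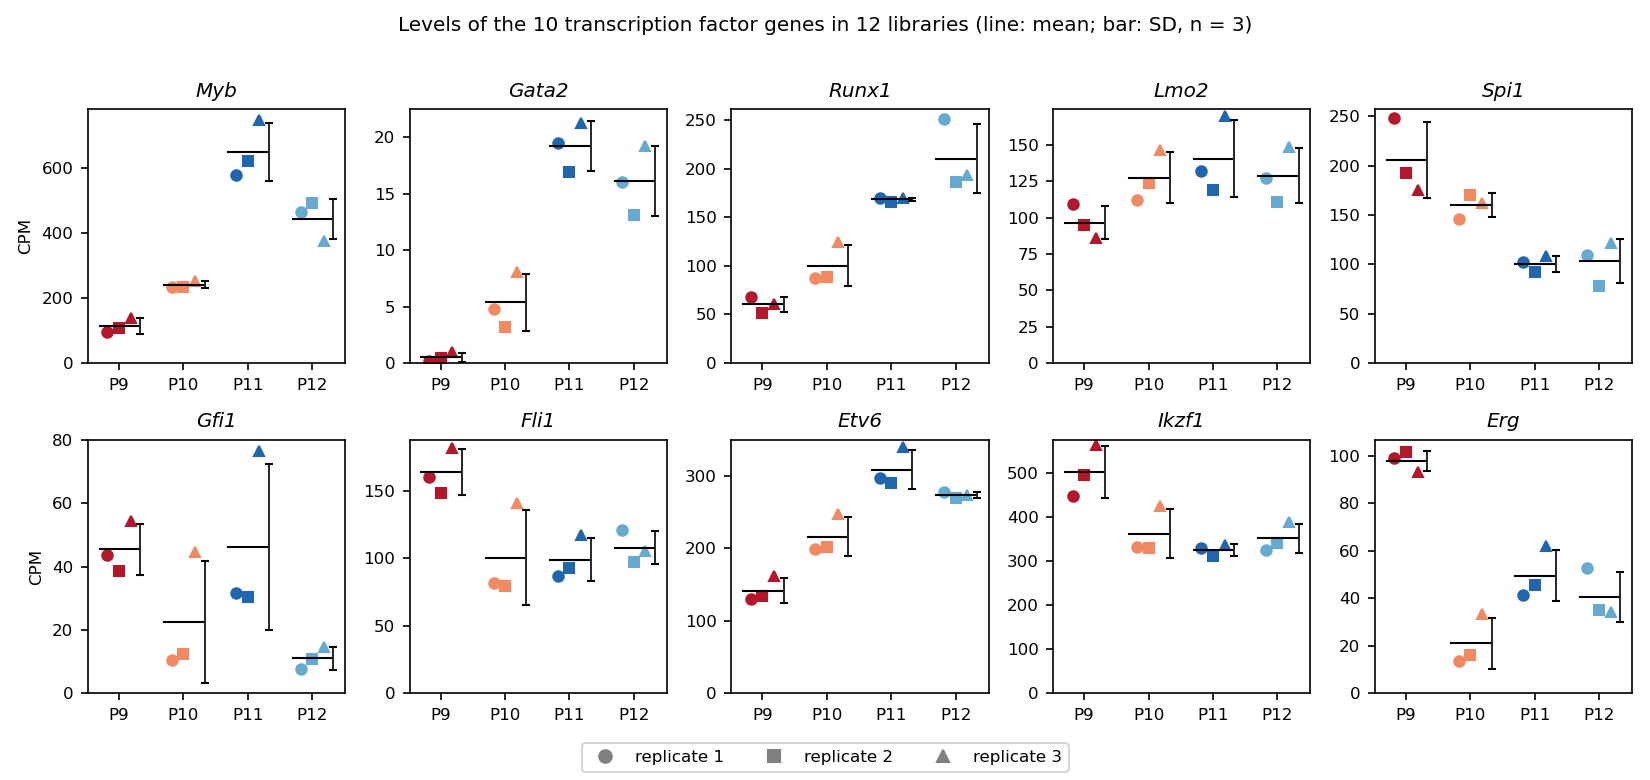
CPM of each of the 10 transcription factor genes (y axis, linear, from 0) in the 3 libraries of P9, P10, P11 and P12 (x axis). Points are libraries with a symbol for each replicate number, the line is the group mean and the bar the SD (n = 3). Myb and Gata2 are highest in P11 and lowest in P9, Erg is highest in P9 with 93.1 to 102 CPM, and replicate 3 of P10 and P11 stands above its group for Gfi1 (44.8 and 76.4 CPM).

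When P11 was set against the mean of the other gates, 3 members were called, beside 25.1% of all genes. All 3 were higher (19.9% of all genes) and none was lower (5.2%). The 3 were Gata2, Myb and Gfi1. The median log2 difference of the members was 0.43, close to the 0.40 of all genes. Against P9, 5 members were called, beside 57.9% of all genes, with 4 higher (46.8%) and 1 lower (11.2%), with a member median of 0.21 beside 0.90 for all genes. Against P10, 4 were called, beside 20.4% of all genes, with all 4 higher (12.8%) and none lower (7.52%), with a member median of 0.64 beside 0.25. Between P11 and P12 none of the members was called in the limma test, and 2 of them (Myb and Gfi1) had an unadjusted p under 0.05. In that comparison 3 of all genes (0.0223%) were called, and 1860 of 13450 had an unadjusted p under 0.05. Of members lower in P11 without a call, 2 passed that unadjusted limit against the other gates together (Spi1 and Ikzf1) and 1 against P10 (Spi1). These comparisons share the P11 libraries and the shared estimate of the spread.

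**Figure D2:**
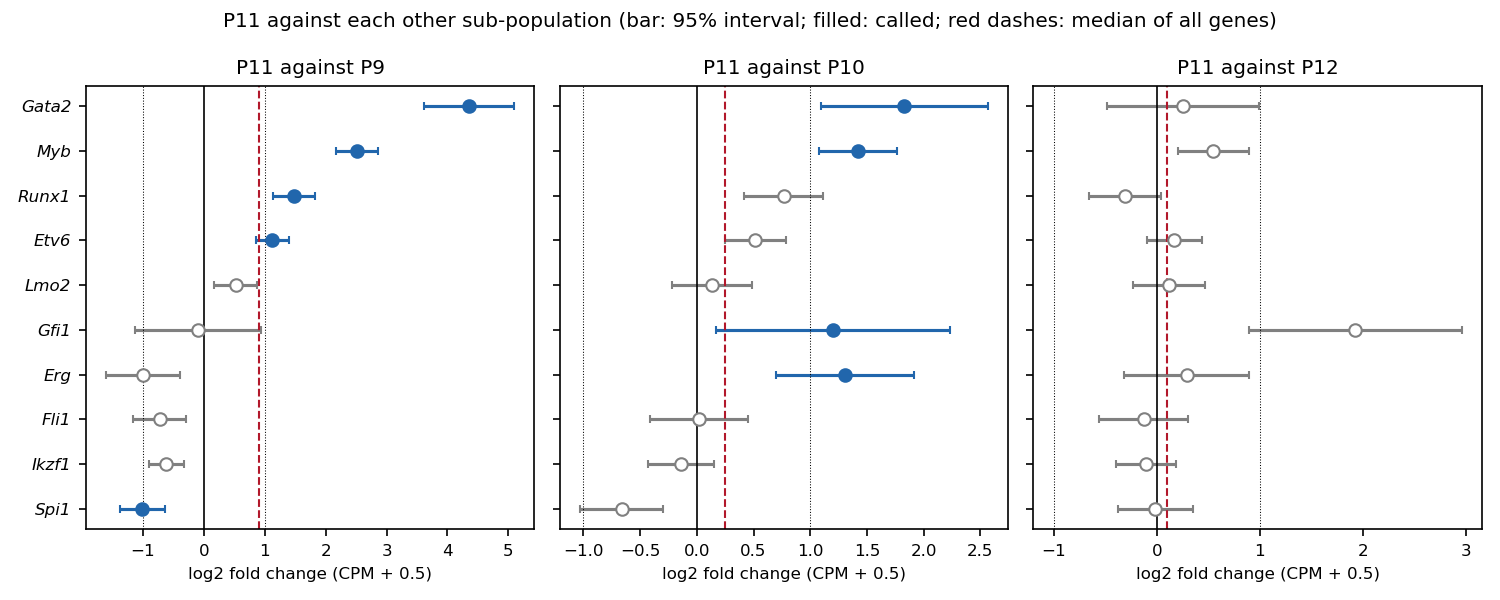
Log2 difference of P11 from P9, P10 and P12 (x axes, on log2(CPM + 0.5)) for each gene, with the 95% interval of the limma fit. Filled points were called, the red dashes mark the median of all genes (0.90, 0.25 and 0.10), and the dotted lines mark a 2-fold difference. Gata2 and Myb are right of the dashes against P9 and P10, and the interval of Gfi1 is wide in each panel.

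Myb had the smallest F test p of the 10 genes. It had 94.8, 107 and 140.4 CPM in replicates 1 to 3 of P9, and 235, 235 and 254 in P10. It had 578.5, 623 and 749 CPM in P11, and 466, 492.5 and 375 in P12. No library of one gate overlapped another gate, and the order was P11, P12, P10, P9. The log2 difference of P11 was 2.51 ± 0.16 (SE) from P9 (limma adjusted p = 2.08e-08) and 1.42 ± 0.16 from P10 (adjusted p = 6.36e-05). From P12 it was 0.55, with a 95% interval of 0.20 to 0.89 (adjusted p = 0.188), which was not called even though the 2 groups of libraries did not overlap. At that gate 22.7% of all genes likewise had no overlap. P10 minus P12 was -0.87 (adjusted p = 0.00277), under the 2-fold limit. P9 minus P10 was -1.09 (adjusted p = 5.56e-05), a call lost without P9 replicate 1 (-0.97) and after rescaling (-0.73).

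Gata2, the GATA factor of stem and progenitor cells, had the widest range of the 10. P9 held 0.147, 0.440 and 0.954 CPM, P10 4.82, 3.19 and 8.12, P11 19.5, 16.9 and 21.3, and P12 16.1, 13.1 and 19.3. P9 and P10 were separate from each other and from the Mac1- gates, while P11 and P12 overlapped. P11 exceeded P9 by 4.36 ± 0.34 on the log2 scale (limma adjusted p = 1.16e-07) and P10 by 1.83 ± 0.34 (adjusted p = 0.00105). P12 did not pass against P11, at 0.26 with an interval of -0.48 to 0.99, but exceeded P10 (P10 minus P12 was -1.57, adjusted p = 0.00595). Because P9 stood near 0, the size of its difference depended on the pseudocount, from 3.09 with 2 CPM added to 5.21 with 0.1 CPM added. The mast cell and basophil markers, another cell type that uses Gata2, summed to 156 to 184 CPM in P9, nearly all of it Hdc, against 7.78 to 10.02 in P10, 17.0 to 24.3 in P11 and 11.3 to 17.7 in P12. Mcpt8, a basophil protease of that list, had 0.290 ± 0.13, 5.36 ± 2.05, 12.1 ± 3.4 and 11.5 ± 4.4 CPM from P9 to P12. It was called higher in P11 than in P9 (3.97) and than in P10 (1.13). Cpa3 was at 0 in all P9 libraries and averaged at most 1.00 ± 1.59 CPM, in P11. Ms4a2 ran the other way, with 0.693 ± 0.53 CPM in P9 and at most 0.255 ± 0.36 elsewhere, in P10. The part of such cells in the Gata2 values was not tested.

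Runx1, the DNA-binding subunit of core binding factor, was the only member with its highest mean in P12. It had 68.3, 52.0 and 60.5 CPM in P9, 87.6, 88.3 and 124 in P10, 169, 166 and 169 in P11, and 251, 186 and 194 in P12. No gates overlapped. P11 exceeded P9 by 1.48 ± 0.16 on the log2 scale (limma adjusted p = 2.32e-06), and P9 minus P12 was -1.79 (adjusted p = 5.09e-07). The difference of P11 from P12 was -0.31, with an interval of -0.66 to 0.04 (adjusted p = 0.431). P10 minus P12 was -1.07 (adjusted p = 0.00104), a call that was lost without P10 replicate 1 (-0.99), P10 replicate 2 (-0.99) or P12 replicate 1 (-0.94). After rescaling P11 minus P9 was 0.98 and P10 minus P12 -0.99, both just under the 2-fold limit.

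Etv6, the ETS repressor, followed the order P11, P12, P10, P9 within a narrower range. Its values were 130.2, 134 and 161 CPM in P9, 199.9, 202 and 247 in P10, 298, 289.6 and 339 in P11, and 278, 270.1 and 274 in P12. All 4 gates were separate, with P12 the tightest. P11 minus P9 was 1.12 ± 0.12 on the log2 scale (limma adjusted p = 2.76e-06), which was called and lay near the median of all genes in that comparison. After rescaling it was 0.62 and was no longer called. P11 minus P10 was 0.52 (adjusted p = 0.00534) and P11 minus P12 was 0.17 (interval -0.10 to 0.44). P9 minus P12 was -0.95 (adjusted p = 1.44e-05), and it was called only without P9 replicate 3 (-1.05) or without replicate 3 of every gate (-1.05).

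Lmo2, the LIM-only bridge of the SCL complex, was the most even of the 10. It had 109, 94.8 and 86.1 CPM in P9, 112, 124 and 147 in P10, 132, 119 and 170.2 in P11, and 127, 111 and 149 in P12. The P9 libraries lay just under the others, and the other 3 gates overlapped throughout. P11 minus P9 was 0.53 ± 0.16 on the log2 scale (limma adjusted p = 0.00985), under 2-fold, and 0.02 after rescaling. No comparison of Lmo2 was called, and its differences of P11 from P10, P9 from P12 and P10 from P12 changed sign under rescaling.

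Erg, Fli1, Spi1 and Ikzf1 had their highest means in P9, opposite to the median gene, which was lower there. Erg, an ETS factor of stem cells and megakaryocytes that is also known as an oncogene in leukemia, had 98.9, 102 and 93.1 CPM in P9. It had 13.6, 16.0 and 33.5 CPM in P10, 41.5, 45.4 and 61.9 in P11, and 52.9, 35.2 and 34.1 in P12. P9 and P10 were separate from every other gate, and P11 and P12 overlapped. P9 minus P10 was 2.30 ± 0.28 on the log2 scale (limma adjusted p = 1.23e-05), P9 minus P12 1.28 (adjusted p = 0.00109) and P11 minus P10 1.31 (adjusted p = 0.00266).

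P11 minus P9 was -0.99 for Erg (limma adjusted p = 0.00592), just inside 2-fold. It passed after rescaling (-1.50), without P9 replicate 3 (-1.03), without P11 replicate 3 (-1.16) and without replicate 3 of every gate (-1.20). P10 minus P12 was -1.02 (adjusted p = 0.0189), a call lost without P10 replicate 1 (-0.77), P10 replicate 2 (-0.88) or P12 replicate 1 (-0.82), after rescaling (-0.93) and with a pseudocount of 2 (-0.96). Megakaryocyte markers, of which 7 of 10 were among the values, summed to 80.7 to 80.9 CPM in P9 and to 25.6 to 53.9 in the other gates. Itgb3 made up most of it, with 70.3 ± 2.4 CPM in P9, against which the defining marker Vwf was at 0.26 ± 0.25 there and at most 1.17 ± 0.52 elsewhere. Gp9, another defining marker, had 6.64 ± 2.84 CPM in P9 and 0.261 ± 0.45, 0.251 ± 0.39 and 0.155 ± 0.15 in P10, P11 and P12, and was called higher in P9 than in P10 by 3.31 (limma adjusted p = 3.92e-05). Pecam1 carried most of the endothelial and stromal sum outside P9. The sum was 24.0 to 44.4 CPM in P9 and 96.2 to 124 in P10, and 218 to 249 in P11 and 207 to 260 in P12. Col1a1, the stromal collagen gene of that list, ran the other way, with 13.4 ± 4.2 CPM in P9 and 1.17 ± 0.29, 0.541 ± 0.22 and 0.231 ± 0.15 in P10, P11 and P12. For Col1a1 P9 was called over P10 by 3.03 and over P12 by 4.23. Pdgfrb, another stromal gene of that list, went with the sum, at 1.10 ± 0.34 CPM in P9 and 13.0 ± 1.5 in P10. It had 33.7 ± 3.8 CPM in P11 and 37.5 ± 5.5 in P12, and was called higher in P11 than in P9 by 4.44. The part of these cells in the Erg values was not tested.

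Fli1, the closest ETS relative of Erg, had a flatter profile. It had 160.2, 148 and 182 CPM in P9, 81.4, 79.3 and 141 in P10, 86.8, 92.9 and 117 in P11, and 121, 97.2 and 105 in P12. P9 lay above every other library, and the other 3 gates overlapped, with P10 replicate 3 above every library of P11 and P12. P9 minus P10 was 0.75 ± 0.20 on the log2 scale (limma adjusted p = 0.00543) and P11 minus P9 was -0.73 (adjusted p = 0.00503). Neither exceeded 2-fold as deposited. The first passed without P10 replicate 3 (1.01), and rescaling gave 1.11 and -1.24. P11 minus P10 was 0.02, with an interval of -0.42 to 0.45.

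Spi1 had 248, 193 and 175 CPM in P9, 146, 170.5 and 162 in P10, 102, 91.9 and 108 in P11, and 109.8, 78.2 and 121 in P12. The Mac1+ gates P9 and P10 did not overlap the Mac1- gates P11 and P12. P11 minus P9 was -1.01 ± 0.17 on the log2 scale (limma adjusted p = 1.15e-04), a call lost without P9 replicate 1 (-0.87) or P11 replicate 2 (-0.95). P11 minus P10 was -0.66 (adjusted p = 0.00744). P11 minus P12 was -0.01, with an interval of -0.38 to 0.35. P9 minus P12 was 1.00 (adjusted p = 1.43e-04), just short of 2-fold. It passed without P9 replicate 2 (1.04) or 3 (1.11) and without P12 replicate 1 (1.06) or 3 (1.13), and reached 1.45 after rescaling.

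Ikzf1 had 447, 497 and 563 CPM in P9, 332, 329.9 and 426 in P10, 331, 311 and 337 in P11, and 326, 341 and 388 in P12. P9 was above every other library, while P10, P11 and P12 overlapped. P11 minus P9 was -0.62 ± 0.14 on the log2 scale (limma adjusted p = 0.00101), under 2-fold as deposited and -1.12 after rescaling. T and NK cell markers summed to at most 3.66 CPM and B cell markers to at most 23.4 CPM in any library. Of these lists 1 of 12 and 2 of 9 genes reached the minimum for testing.

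Gfi1 was lowest in P12 and had its higher means in P11 and P9. It had 43.6, 38.6 and 54.4 CPM in P9, 10.4, 12.4 and 44.8 in P10, 31.8, 30.3 and 76.4 in P11, and 7.59, 10.9 and 14.6 in P12. P12 was below every P11 and P9 library, and P10 replicate 3 lay inside the range of P9, far from its own group. P9 minus P12 was 2.03 ± 0.48 on the log2 scale (limma adjusted p = 0.00179), P9 minus P10 1.30 (adjusted p = 0.0293) and P11 minus P10 1.20 (adjusted p = 0.0597). P11 minus P12 was 1.93, with an interval of 0.89 to 2.96, but its adjusted p was 0.145. A fit that added the replicate number as a block called it (1.93, limma adjusted p = 0.0186).

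These calls of Gfi1 changed with single libraries and with other settings. Without P10 replicate 3 the difference of P11 from P10 was 1.84, and that from P12 passed (1.93, limma adjusted p = 0.0893). The call of P11 against P10 was lost without P10 replicate 1 (0.81), P10 replicate 2 (0.93) or P11 replicate 3 (0.77). The call of P9 against P10 was lost without P10 replicate 1 (0.92) or P10 replicate 2 (1.04). P11 against the mean of the others was 1.01 (adjusted p = 0.0403), and it ranged from 0.58 to 1.24 when 1 of the 12 libraries was left out, and the call was lost without replicate 1 of P9, P10 or P12, without replicate 2 of P9 or P10, and without replicate 3 of P11. It was also lost after rescaling (0.77) and with a pseudocount of 2 (0.94). With replicate 3 of every gate left out, P11 minus P12 was 1.72 (adjusted p = 0.0126) and P11 against the others was 0.91.

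The library that stood apart for Gfi1 was also higher for most neutrophil genes in P10, and had a higher neutrophil sum in P11. In P10 replicate 3 the 11 neutrophil maturation markers summed to 12370 CPM, against 1769 and 2427 in the other P10 libraries, and 10 of the 11 were highest there. In P11 replicate 3 they summed to 810 CPM against 277 and 326. There 5 of the 11 were highest, near the share of all genes highest in that library (39.2%). Replicate 3 held the highest value of its gate for 9 of the 10 members in P10 and for 10 in P11, where it did so for 42.9% and 39.2% of all genes. In P9 and P12 the counts were 6 and 5, beside 45.1% and 34.3%. The labels give the replicate 3 libraries letters and the 8 others numbers, without saying what that marks. With replicate 3 of every gate left out, Erg was still called in P11 against P10, and the part of neutrophils in the Gfi1, Erg, Fli1, Spi1 and Ikzf1 values was not tested.

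**Figure D3:**
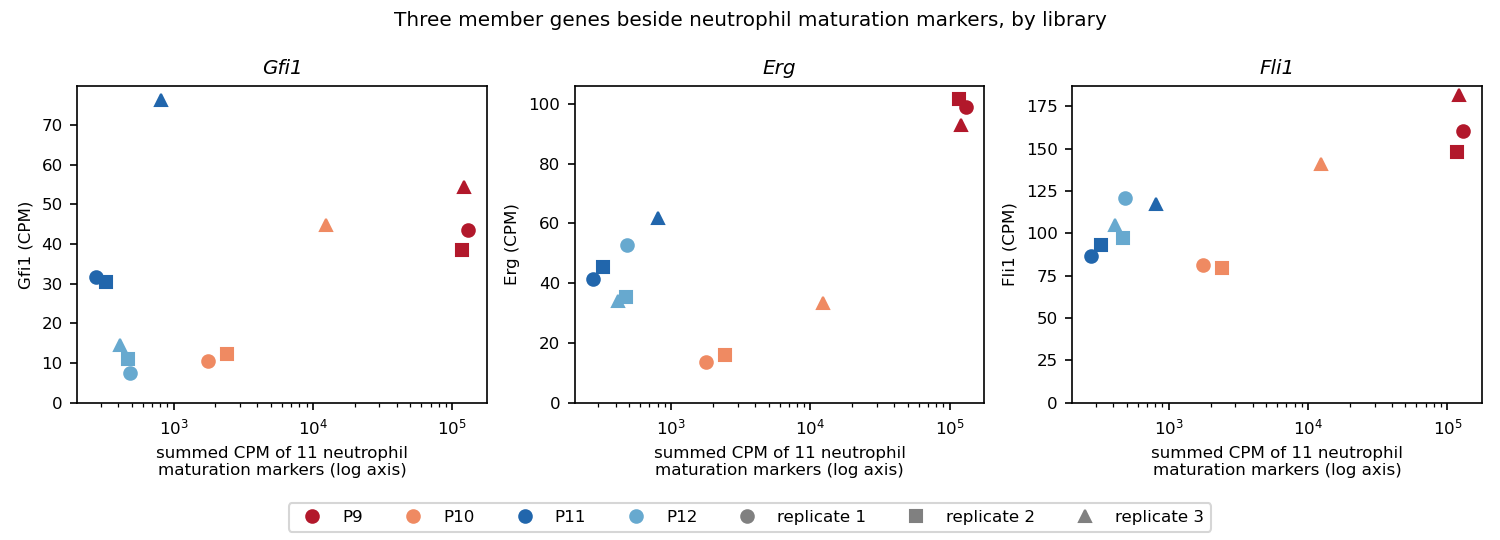
CPM of Gfi1, Erg and Fli1 (y axes, linear) against the summed CPM of 11 neutrophil maturation markers (x axis, log scale), 1 point per library, with a colour for each gate and a symbol for each replicate number. P10 replicate 3, at 12370 CPM of markers, lies between the other P10 libraries and P9 for Fli1 and Erg, and inside P9 for Gfi1. P11 replicate 3 is the highest library for Gfi1 with 76.4 CPM at only 810 CPM of markers.

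Counting overlap alone, the libraries of P9 and P12 were separate for all 10 members, beside 73.2% of all genes. P11 and P9 were separate for 9 (79.3%), P9 and P10 for 9 (68.8%), P11 and P10 for 6 (59.9%), P10 and P12 for 6 (42.8%), and P11 and P12 for Myb, Runx1, Etv6 and Gfi1 (22.7%). Between the gates other than P11, P9 against P10 gave calls for 4 members, beside 42.4% of all genes. Of these Erg and Gfi1 were higher in P9 (8.33% of all genes), and Myb and Gata2 lower (34.1%). P9 against P12 gave calls for 5 members, beside 54.3% of all genes, with Erg and Gfi1 higher (11.1%) and Myb, Gata2 and Runx1 lower (43.2%). P10 against P12 gave calls for Gata2, Runx1 and Erg, beside 12.1% of all genes, and all 3 were lower in P10 (6.25%). None was called higher by limma (5.83% of all genes), and 1, Spi1, had an unadjusted p under 0.05 in that direction.

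The distance between 2 profiles was taken as the root mean square of the difference between their log2 values, each centred on its gene mean, over the 12 libraries, which share depth and gate. Among the 45 pairs of members the closest were Fli1 and Ikzf1 (0.20), Lmo2 and Etv6 (0.30), Spi1 and Ikzf1 (0.345) and Runx1 and Etv6 (0.36). The farthest were Gata2 and Gfi1 (2.29) and Gata2 and Erg (2.29). The same measure was used to find the nearest 3 protein-coding genes among 8233 with a mean of 10 CPM or more. For Myb they were Nop2 (0.13), Nudc (0.13) and Zranb3 (0.15), where the median gene was at 0.77. For Gata2 they were Pcp4l1 (0.30), Hmgn1 (0.35) and Pcyox1l (0.38), with a median of 1.48.

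For Runx1 the nearest genes were Mdc1, Ylpm1 and R3hdm1 (0.17 to 0.18, median 0.63). Spi1 was nearest to Rhog (0.09), Efhd2 (0.12) and Dok3 (0.13), with a median of 0.86, and Etv6 to Ankrd17, Psmc1 and Spn (each 0.08, median 0.48). Gfi1 had no gene as near, its first being Far2 (0.38), Sipa1l1 (0.40) and Arsb (0.42), with a median of 1.25. Erg was nearest to Csf1 (0.32), Otud7b (0.33) and Cd81 (0.37), with a median of 1.17. For Myb and Gata2 only 1 of the 3 names was kept with a pseudocount of 2.

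**Figure D4:**
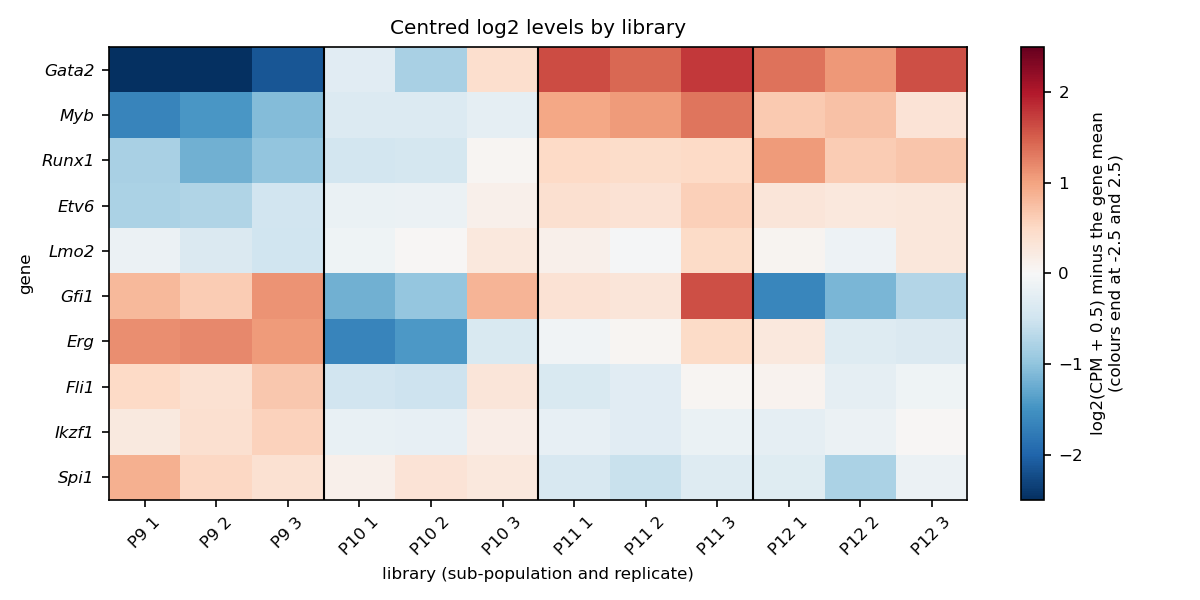
Level of each gene in each library as log2(CPM + 0.5) minus the mean of the gene over the 12 libraries, as colour from -2.5 (blue) to 2.5 (red). Libraries (x axis) are ordered by gate and replicate and genes (y axis) by profile. Gata2 and Myb pass from blue in P9 to red in P11, Erg and Gfi1 show their own columns in P10, where replicate 3 is lighter or red, and Lmo2 stays near white.

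The families around the members were counted from lists of their relatives and partners. Of 13 tested ETS genes other than the members (22 listed), 5 were called higher and 2 lower in P11 than in P9, and 1 higher than in P10. Of all genes 46.8% were called higher and 11.2% lower against P9, and 12.8% higher against P10, so the list divided about as all genes did. Ets1, the founding gene of the family, had 241 ± 30 CPM in P9 and 27.3 ± 27.3 in P10, and 16.1 ± 15.1 in P11 and 3.47 ± 0.56 in P12. Elf1 ran the other way with 92.7 ± 9.6, 176 ± 16, 284 ± 6 and 296 ± 32 CPM in P9, P10, P11 and P12. Elk3 (log2 difference of P11 from P9 1.88) and Erf (2.86) were also called higher in P11 than in P9.

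Of 13 tested genes for GATA factors and partners of the SCL and LMO2 complex (19 listed), all 13 were called by the F test, beside 65.1% of all genes. In P11 against P9, 7 were higher and 3 lower (46.8% and 11.2% of all genes), and the median was 1.29 beside 0.90 for all genes. The limma test called none against P10 (6 with an unadjusted p under 0.05, median 0.22) or P12 (2, median 0.08). Cbfa2t3, a corepressor of this complex, had 3.81 ± 0.61 CPM in P9 and 76.7 ± 6.0 in P10, and 89.1 ± 5.9 in P11 and 120.2 ± 29.3 in P12. The E-proteins Tcf4 and Tcf12 were higher in P11 than in P9 by 3.42 and 1.73 on the log2 scale, and Lmo4 was lower, with P11 minus P9 at -2.12. Lmo4 thus stood opposite to its even relative Lmo2.

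Of 7 tested RUNX relatives and cofactors (10 listed), 3 were called by the F test, beside 65.1% of all genes. Cbfb, the partner that stabilises Runx1 on DNA, had 66.3 ± 22.9 CPM in P9 and 102 ± 6 in P10, and 140.3 ± 16.8 in P11 and 139.7 ± 17.1 in P12, with P11 minus P9 at 1.13. Runx2 was highest in P9 (128 ± 18 CPM) and lowest in P10 (61.5 ± 3.4). Tle2, a Groucho corepressor, reached at most 7.28 ± 4.82 CPM, in P12, and Tle3 was not called. Of 10 MYB relatives and coactivators, 5 were called higher in P11 than in P9, about the share of all genes (46.8%), and 4 higher than in P10 (12.8% of all genes). Mybl2, the family member of dividing cells, had 9.47 ± 2.38, 15.3 ± 4.2, 50.1 ± 5.6 and 31.4 ± 3.9 CPM in P9, P10, P11 and P12. Mybl1 and Mybbp1a, which binds Myb, were also called higher in P11 than in P10, by 1.42 and 1.37, while Lin52 was at 0.54 and was not called.

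Of 19 tested relatives and corepressors of Gfi1 and Ikaros (23 listed), 6 were called higher in P11 than in P9 (46.8% of all genes) and 1 higher than in P10 (12.8%), in each case a smaller share than among all genes. The last was the histone deacetylase Hdac2, with 15.0 ± 2.2 CPM in P9 and 32.8 ± 2.4 in P10, and 74.7 ± 5.3 in P11 and 63.8 ± 18.4 in P12. The histone methyltransferase Ehmt2 and the NuRD subunits Mta1 and Mbd3 were each called higher in P11 than in P9, by 2.44, 2.84 and 2.05 on the log2 scale. The corepressor Rcor1 had its highest mean in P9, at 131 ± 1 CPM, beside 84.6 ± 8.6 in P10, and 118.2 ± 9.8 in P11 and 101.3 ± 14.1 in P12.

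Genes known from other work to be controlled by Myb, PU.1 and Gfi1 were counted in the same way. All 7 Myb targets tested were called higher in P11 than in P9 (median 4.39) and than in P10 (median 1.87), and none was called by limma against P12 (3 with an unadjusted p under 0.05, median 0.32). Cd34 had 6.56 ± 1.38 CPM in P9 and 93.8 ± 1.7 in P10, and 402 ± 26 in P11 and 355 ± 50 in P12. Myc had 7.18 ± 1.25, 43.8 ± 7.8, 159.8 ± 16.8 and 92.7 ± 27.9 CPM in P9, P10, P11 and P12. Bcl2 and the primary granule gene Mpo were higher in P11 than in P10 by 1.74 and 3.20. The targets were not alike against P12. P11 minus P12 was 2.41 for Mpo (interval 1.40 to 3.42) and 1.73 for Elane (interval 0.81 to 2.65), but -0.09 for Bcl2. The list is short, its values come from the libraries that give the Myb values, and the share of all genes called higher against P9 was itself 46.8%, and against P10 12.8%.

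The 11 tested PU.1 targets divided. In P11 against P9, where Spi1 was lower, 4 were called lower and 3 higher (11.2% and 46.8% of all genes). Against P10, 7 were lower (7.52% of all genes) and limma called none higher, with none of that direction at an unadjusted p under 0.05 (median -1.21 beside 0.25 for all genes). Cybb of the phagocyte oxidase and Csf3r, the receptor of granulocyte colony-stimulating factor, were both lower in P11 than in P9, at -2.00 and -2.58. The macrophage genes Csf1r and Cd68 were higher there, at 3.44 and 3.07, and Csf1r was lower than in P10, at -1.54. Monocyte and macrophage markers summed to 1031 to 1068 CPM in P9 and 6836 to 7483 in P10, and 3941 to 4175 in P11 and 4489 to 7208 in P12, and their part in the Spi1 values was not tested. The neutrophil maturation markers, from another cell type that uses PU.1, summed to 116500 to 130200 CPM in P9 and 1769 to 12370 in P10, against 277 to 810 in P11 and 413 to 484 in P12. For Spi1 itself P9 minus P10 was 0.35 (limma adjusted p = 0.088), which was not called. The part of neutrophils in its values was not tested.

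Of 6 tested genes that Gfi1 is known to repress, P11 had 3 called lower and 1 called higher than the other gates together (5.2% and 19.9% of all genes). Egr1 had 32.8 ± 11.8 CPM in P9 and 5.60 ± 1.39 in P10, and 0.715 ± 0.36 in P11 and 1.21 ± 0.36 in P12. Id2 was at 65.6 ± 11.5, 74.1 ± 19.4, 18.2 ± 1.3 and 25.5 ± 2.1 CPM, and Cdkn1a at 5.09 ± 2.18, 50.9 ± 7.3, 47.2 ± 2.9 and 64.2 ± 13.3. Csf1, which was also the nearest gene to Erg, was lower in P11 than in P9, at -1.10. Against P9, where Gfi1 did not pass (P11 minus P9 -0.10, interval -1.13 to 0.93), 2 of the 6 were called higher in P11 and 4 lower, beside 46.8% and 11.2% of all genes. In P9 against P12, where Gfi1 was called higher (2.03), 4 of the 6 were called higher and 2 lower. Of all genes 11.1% were called higher and 43.2% lower there. The part of Gfi1 in these values was not tested.

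**Figure D5:**
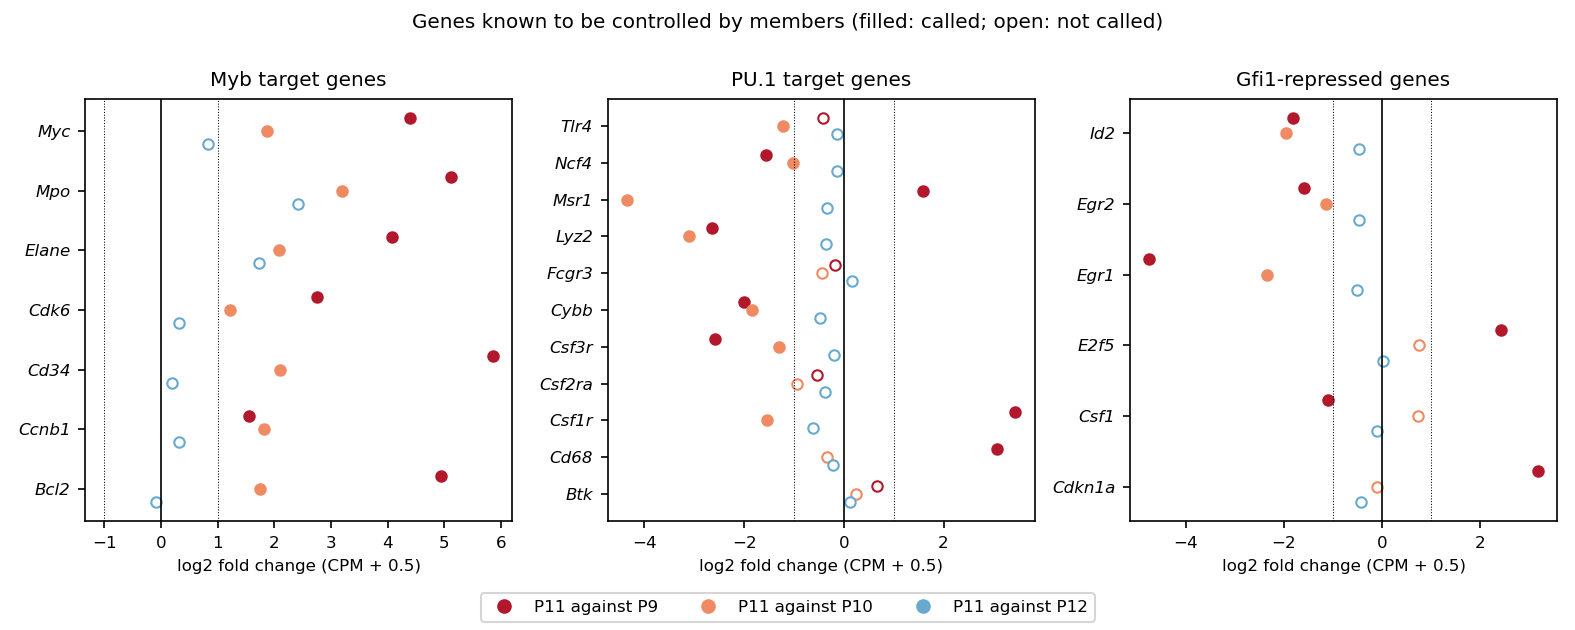
Log2 difference of P11 from P9, P10 and P12 (x axes, on log2(CPM + 0.5)) for genes known to be controlled by Myb, PU.1 and Gfi1 (y axes). Filled points were called and the dotted lines mark a 2-fold difference. All 7 Myb targets are filled to the right against P9 and P10, the PU.1 targets lie on both sides against P9 with Csf1r at 3.44 and Lyz2 at -2.64, and no point against P12 is filled.

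The erythroid markers summed to 93.0 to 230 CPM in P9 and to 49.3 to 112 in the other gates. Globin genes made up most of the sum in P9, led by Hbb-bs with 64.1 ± 22.6 CPM there. Slc4a1 went with the sum, with 6.63 ± 2.74 CPM in P9 and at most 2.39 ± 0.62 elsewhere, in P10. Klf1 ran the other way near the floor, at 0 in P9 and at most 0.451 ± 0.15 CPM, in P11. Dendritic cell markers summed to 18.0 to 22.3 CPM in P9 and 109 to 242 in P10, and 163 to 456 in P11 and 159 to 527 in P12, and outside P9 most of it was Flt3, which progenitors also express. The defining dendritic gene Siglech was at 0 in P9 and at most 2.28 ± 0.19 CPM in P12. Bst2 of that list also went with the sum, with P11 minus P9 at 3.06. Itgax ran the other way, with 5.87 ± 1.44 CPM in P9 and 8.21 ± 2.59 in P10. It had 0.979 ± 0.32 CPM in P11 and 1.49 ± 0.52 in P12, and was called lower in P11 than in P9 (-2.10) and P10 (-2.54). The part of these cells in the Gata2, Runx1 and Spi1 values was not tested.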

How the data were processed

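RNA-seq was read in 12 libraries, 3 of each sub-population. Tools listed in the processing notes of the submitters are STAR 2.5.3a, Bowtie2, bcl2fastq 2.17, DESeq2 3.5, DESeq and Partek, and the build listed is mm10. By the methods of the study, single reads of 61 bases were aligned with STAR to Ensembl release 92 transcripts and quantified with the Partek E/M algorithm. The values deposited by the authors are CPM with 0.0001 added, for 20202 genes. They are not whole counts, so no count model was fitted. Of the low values (up to 20 alignments), 76.6 to 83.0% were within 0.1 of a whole number. Intervals and levels near 0 carry counting error besides the spread between libraries.

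The offset was subtracted and log2(CPM + 0.5) was fitted with limma 3.58.1 (R 4.3.3, with data.table, version 1.17.8), 1 mean per sub-population, with an intensity trend and two-sided tests. Fold changes are on this scale and understate changes of low genes. A gene was tested if 3 or more libraries held 1 CPM, and the Benjamini-Hochberg adjustment ran over the 13450 genes that met this. Calls needed an adjusted p under 0.1 and more than 2-fold, the limits used by the study. The fit was tested on simulated data. Plots were drawn with matplotlib 3.10.9, and other steps ran in Python 3.11.15 with numpy 2.4.6 and pandas 2.3.3. Gene positions and shared sequence came from GENCODE for the build of the file, and promoters from RefSeq.

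All 10 members are given, and the 3 nearest profiles of each member spanning more than 2-fold. Of each other list, up to 4 genes with the smallest F test p were set to be named, but not all of these are named. Other genes named were chosen after their values were seen. A gene of the PU.1 target list is not reported here and enters no count of that list. The members and lists were chosen with earlier results of these data known. Alternatives were an adjusted p of 0.05, each library left out, the replicate number as a block, median-ratio rescaling, pseudocounts of 0.1 and 2, and a minimum of 10 CPM or none. A fit without the 4 libraries numbered replicate 3 was chosen after seeing the data.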

Additional observations from a re-analysis of the deposited data

How the results depend on the processing

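Of the 24 called differences of single members among 70 pairwise and P11 comparisons, 15 were called in every setting and none changed sign. Between P11 and P12 the count of genes called was 3 as reported, 1 with a pseudocount of 0.1, without a filter, after rescaling or at an adjusted p of 0.05, 34 with a pseudocount of 2, 31 without replicate 3 of every sub-population, and 1 to 82 with 1 library left out (82 without P12 replicate 2, 41 without P9 replicate 3, 30 without P10 replicate 3). The count of members there was 1 (Gfi1) without replicate 3 of every sub-population and 0 to 1 with 1 library left out. With a pseudocount of 2, P11 against the mean of the others gave 2213 genes and P10 against P12 gave 1067. P10 against P12 gave 1 member after rescaling, and 1 to 3 with 1 library left out.

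Members not called changed sign in some settings, and the cause was not tested. After rescaling the log2 difference was -0.0326 for Erg in P11 against the mean of the others, -0.12 for Fli1 and -0.0071 for Lmo2 in P11 against P10, and for Lmo2 0.0431 in P9 against P12 and 0.0710 in P10 against P12. Without replicate 3 of every sub-population it was 0.0644 for Spi1 in P11 against P12 and -0.0110 for Ikzf1 in P10 against P12. With 1 library left out the range was -0.53 to 0.13 for Gfi1 in P11 against P9, -0.13 to 0.29 for Fli1 and -0.0132 to 0.24 for Lmo2 in P11 against P10, and -0.0273 to 0.23 for Lmo2 and -0.20 to 0.12 for Spi1 in P11 against P12. In P10 against P12 it was -0.0840 to 0.11 for Ikzf1 and -0.12 to 0.0940 for Lmo2.

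Rescaling moved the share of called genes that were higher from 79.3 to 63.8% in P11 against the mean of the others, from 80.7 to 66.7% against P9 and from 63.1 to 52.2% against P10. In P9 it went from 19.7 to 32.7% against P10 and from 20.4 to 33.8% against P12. In P10 against P12 it went from 48.3 to 57.6%. For the nearest profiles, a pseudocount of 2 kept 1 of the 3 names for Myb and 1 for Gata2.

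Same-numbered libraries deviated together in 12 of 18 pairs (r over 0.1, range -0.02 to 0.53), with a median r of 0.138, against 9 of 36 pairs of other numbers (median -0.1175). As a hint from the data, 10 of the 12 libraries were closest to 1 of their own number, but the labels do not say what a number marks and not every pair passed 0.1, so the block was kept as an alternative. With the replicate number as a block, P11 against P12 gave 119 genes and 1 member (Gfi1, 1.93, limma adjusted p = 0.0186). No other member call changed with the block.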
